A study of Rattus norvegicus with 8 samples.

Results

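Plasma of adult rats that had been exposed to 10% intermittent hypoxia (IH) as neonates was compared with plasma of adult rats raised in normoxia, through the transcripts that each plasma induced in blood cells of healthy rats. The comparison took the 2 arrays titled 10% IH and the 2 titled control, 4 of the 8 arrays of the series, and covered 14217 genes, each represented by its brightest probe set. The reporter cells were lymphocytes and monocytes of blood (PBMCs, peripheral blood mononuclear cells) from 2 male Brown Norway rats of about 180 days, BN1 and BN2. Each culture held 500000 cells and 20% plasma and ran for 6 h, and each plasma met the cells of either donor in 1 culture and on 1 array. The 10% IH plasma was 1 pool from 3 male Sprague-Dawley rats that had been exposed to 10% oxygen intermittently, 1 h a day, from postnatal day 2 to 6. The control plasma was 1 pool from 8 male Sprague-Dawley rats kept at 21% oxygen. Both groups of plasma donors were bled on PD114 (PD is postnatal day) after an overnight fast, and both pools were foreign to the Brown Norway cells. Since each plasma was pooled 1 time, the arrays of a group differ in the reporter donor and the culture, and no value below measures the spread between exposed rats. An exact permutation of 2 against 2 arrays cannot give a two-sided p under 0.333. Arrays with 5% IH plasma (a pool from 5 rats) and with autologous Brown Norway plasma are quoted for reference only. Titles and descriptions name BN1 or BN2 cells for the autologous arrays, while some of their other labels name the second donor's plasma or cells, so the donor order of the autologous values is that of the titles. Ratios of 5% IH and of autologous plasma to control plasma share the control arrays with the ratios described here.

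The labelled cell type was borne out by its markers. On the 4 arrays *Cd3e*, of the T cell receptor complex, lay at log2 levels of 10.22 to 10.40, *Ms4a1*, the B cell antigen CD20, at 9.39 to 9.58, *Cd14*, the monocyte co-receptor for lipopolysaccharide, at 9.78 to 10.03 and *Nkg7*, of cytotoxic granules, at 8.75 to 8.90. Transcripts of platelets (*Pf4*, 12.46 to 12.69) and red cells (*Hbb*, 13.96 to 14.05) were also abundant. With autologous plasma *Cd14* lay at 4.48 and 4.78, so that monocyte transcripts separate the autologous arrays from all Sprague-Dawley plasma arrays, and their part in the autologous values below was not tested. In RNA from mixed cells, fewer cells of a type and less RNA per cell cannot be told apart.

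As background, plasma carries hormones, cytokines and lipids, and cultured PBMCs respond to them within hours. Glucocorticoids bind a receptor that enters the nucleus and induces genes such as *Fkbp5*, *Tsc22d3* and *Klf9*. Cytokines that signal through JAK kinases activate STAT factors, which induce their own inhibitors of the SOCS family. Bacterial products and interleukin 1 activate NF-kB, which induces neutrophil-attracting chemokines in monocytes, and interferons induce a large set of antiviral genes. B cells are the blood cells that take up, present and respond to antigen through their immunoglobulin receptor.

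With 10% IH plasma, transcripts of 5 of 20 glucocorticoid-induced genes were more than 1.2-fold higher than with control plasma in cells of both donors. The share over all genes was 0.64%, and *Rasd1* led at 2.91-fold. Neutrophil-attracting chemokines (*Cxcl1*, *Cxcl2*) were higher too, while *Ubd*, *Plscr1*, *Cd86* and several B cell transcripts were lower. By the study's criterion, a Rank Product p under 0.05 (a rank test over the between-array ratios) and group means that differ by more than 1.2-fold, 290 genes were higher (2.04% of the 14217) and 322 were lower (2.26%), 612 in all (4.3%). "Rose" and "fell" below refer to this criterion. The gene lists were written with earlier results of these data known, so counts over them are a description. The Rank Product p removed no gene, since the fold threshold alone gave the same number. In limma, 0 probe sets of 31042 passed at an adjusted p under 0.05 (lowest adjusted p = 0.92), against 1612 (5.19%) at an unadjusted p under 0.05. The count became 46, of which 41 were lower, when the BN2 array of 10% IH was left out (3 genes by their brightest probe set), and 0 without any of the other 3 arrays. With all arrays, every gene named below had a limma adjusted p of at least 0.92.

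A smaller set of genes was past the fold threshold in the same direction in both donors. These were 91 genes in the upward direction (0.64% of all genes) and 83 in the downward direction (0.584%), and all 174 (1.22%) met the criterion. A further 82 genes were past it in opposite directions. In either direction 1896 genes were past it in BN1 and 1253 in BN2, so part of the 174 can arise without a shared response. Among the genes that rose, 130 were past the threshold in BN1 alone and 69 in BN2 alone, and among those that fell 140 and 98. The BN1 ratios were wider, with 226 genes beyond 0.5 in either direction against 119 in BN2, and an SD over genes of 0.185 against 0.153. The BN1 array of 10% IH also stood farthest from the gene-wise median of the other arrays with Sprague-Dawley plasma, with 113 genes more than 0.5 away, against 30 to 62 on each of those 5 arrays. Across the 14217 genes, which are not independent replicates, Pearson's r between the donors' ratios was 0.116. The leading results are therefore given in each donor. Genes whose 10% IH arrays both lay above both control arrays numbered 2363 (16.6%), and 2438 (17.1%) had both below.

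**Figure D1:**
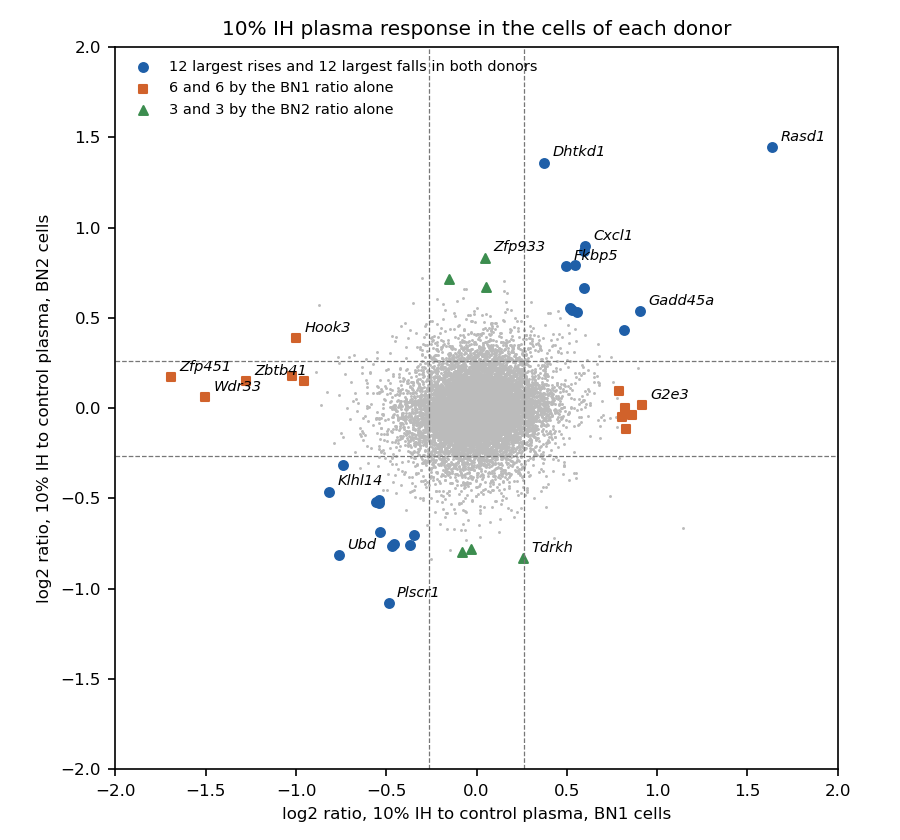
Log2 ratio of 10% IH to control plasma in BN1 cells (x axis) and BN2 cells (y axis) for 14217 genes (grey), with the 1.2-fold threshold as dashed lines. Circles are the 12 largest rises and 12 largest falls past the threshold in both donors, and *Rasd1* lies apart at 1.64 and 1.45. Squares (BN1) and triangles (BN2) are genes with a large ratio in that donor. Their ratio in the other donor is within 0.1 of 0 or of the other sign.

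*Rasd1*, a small Ras-like GTPase named for its induction by dexamethasone, a synthetic glucocorticoid, had the largest ratio of all genes. Its log2 level was 5.54 and 5.61 with control plasma and 7.17 and 7.05 with 10% IH plasma, in BN1 and BN2 cells. Both arrays with 10% IH plasma thus lay above both control arrays, as in 16.6% of all genes. The log2 ratio was 1.54 (limma standard error 0.306, n = 2 arrays per group, adjusted p = 0.92 from limma). Leaving out any 1 of the 4 arrays gave 1.48 to 1.60, and with the 4 arrays fitted alone *Rasd1* was the 1 probe set to pass in limma (adjusted p = 0.0401). With 5% IH plasma *Rasd1* lay at 5.61 and 5.39, at the level of the control arrays. With autologous plasma it lay at 7.23 and 8.44, at or above the level with 10% IH plasma. Set directly against 5% IH plasma, the level with 10% IH plasma was higher by 1.61 (unadjusted p = 0.000566, adjusted p = 0.981 from limma over all probe sets).

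Further transcripts of the glucocorticoid response, 4 in number, rose in both donors. *Fkbp5*, a co-chaperone that restrains the glucocorticoid receptor, was at 7.82 and 7.86 with control and at 8.31 and 8.64 with 10% IH plasma, a ratio of 0.64 (0.49 in BN1, 0.78 in BN2). Its dimmer probe set had a ratio of 0.48 (0.51 and 0.45). *Tsc22d3*, the glucocorticoid-induced leucine zipper that dampens inflammation, went from 11.46 and 11.47 to 12.06 and 11.88, a ratio of 0.50. *Klf9*, a Krüppel-like repressor, went from 9.85 and 9.92 to 10.25 and 10.45, a ratio of 0.46. Its dimmer probe sets were past the threshold in BN1 cells alone, one with 0.67 in BN1 and -0.09 in BN2 and another with 0.32 and 0.21. *Ddit4*, an inhibitor of the growth kinase mTOR, went from 8.92 and 8.95 to 9.47 and 9.32, a ratio of 0.46. By the brightest probe set of each of these genes the groups did not overlap, as in 16.6% of all genes in this direction, and the call held with any 1 array left out. *Txnip*, which binds thioredoxin and limits glucose uptake, had a ratio of 0.31 that was past the threshold in BN1 cells (0.39) and not in BN2 cells (0.23), and it was 0.25 without the BN1 array of 10% IH.

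Of the 20 glucocorticoid-induced genes measured, 6 rose and 0 fell, against 2.04% and 2.26% of all genes. The list was written with earlier results of these data known, and *Rasd1* and *Fkbp5* are among the genes the study lists for 10% IH. Its counts are therefore not independent evidence. The median log2 ratio of the list was 0.15 (0.18 in BN1, 0.10 in BN2), where that over all genes was -0.0012. The ratio was above 0 in both donors for 16 of the 20 (26.2% of all genes) and below 0 in both for 3 (27.6%). *Sgk1*, a kinase of salt transport and a classical target, had ratios of only 0.10 and 0.18, and *Per1*, a clock gene with a receptor site, 0.29 and 0.03. *Dusp1*, a phosphatase of MAP kinases, had 0.20 and 0.06. *Cd163*, a scavenger receptor of monocytes, had -0.33 and -0.10, and *Anxa1*, an anti-inflammatory lipid-binding protein, 0.05 and -0.29. *Nr3c1*, the receptor itself, had -0.13 and -0.03. With 5% IH plasma the list's median was 0.075 in BN1 and 0.033 in BN2. With autologous plasma *Fkbp5* lay at 8.51 and 9.46 and *Tsc22d3* at 11.99 and 12.35, *Klf9* at 10.28 and 10.56 and *Ddit4* at 9.45 and 9.96, each above both control arrays.

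**Figure D2:**
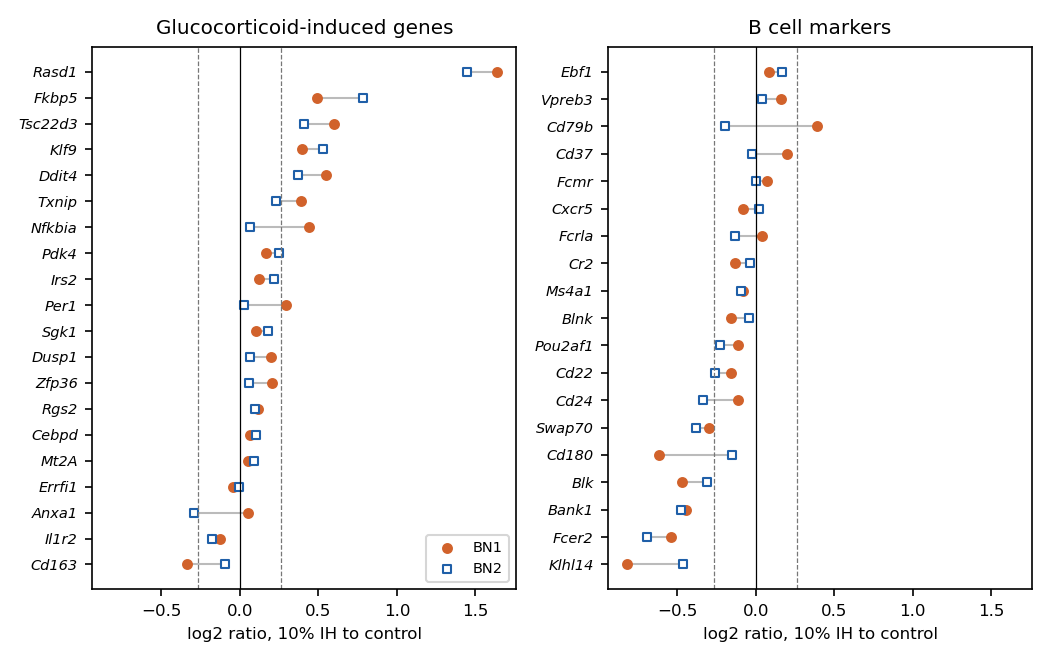
Log2 ratio of 10% IH to control plasma in BN1 (circles) and BN2 cells (squares) for each measured glucocorticoid-induced gene (left) and B cell marker (right), with dashed lines at the fold threshold. Cells of both donors lie past the threshold for *Rasd1*, *Fkbp5*, *Tsc22d3*, *Klf9* and *Ddit4* in the left panel and for *Klhl14*, *Fcer2*, *Bank1*, *Blk* and *Swap70* in the right panel.

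Promoters were read for motifs of the factors named above, as a description. For the 20 of the 24 leading genes found in the table, RefSeq sequence of the 250 bases before the start site (build GRCr8) was searched on both strands for the core of the glucocorticoid receptor site (AGAACA), the STAT site (TTCNNNGAA), the interferon response core (GAAANNGAAA) and a kB site (GGGANNTTCC). The promoter of *Rasd1* (chr10:45267683-45267932, minus strand) is shown because that gene leads the comparison, and it is all in lower case because none of these letters are in the window.
Rasd1: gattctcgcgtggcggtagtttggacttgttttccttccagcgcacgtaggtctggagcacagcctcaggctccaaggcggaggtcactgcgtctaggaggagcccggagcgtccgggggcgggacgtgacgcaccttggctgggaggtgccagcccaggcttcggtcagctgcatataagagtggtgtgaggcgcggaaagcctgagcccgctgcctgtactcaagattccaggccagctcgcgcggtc
The core of the glucocorticoid receptor site was in 11.5% of the 11700 promoters of measured genes, in 5.56% of the 72 promoters of genes past the threshold upward in both donors, and in 6.06% of the 66 of genes past it downward. *Fkbp5*, *Tsc22d3*, *Klf9* and *Ddit4* had no match to it, and among the leading genes *Foxa2*, which fell, had one. Sequence outside the 250 bases and other forms of the site were not searched, so a gene without a match can still hold one.

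Among the genes with large ratios in both donors were 2 neutrophil-attracting chemokines. *Cxcl1* went from 4.94 and 4.83 with control to 5.54 and 5.72 with 10% IH plasma (log2 ratio 0.75, limma standard error 0.172, adjusted p = 0.92 from limma). *Cxcl2* went from 7.25 and 7.67 to 7.77 and 8.21 (0.54), with 0.53 in BN1 and 0.54 in BN2 cells, although BN2 cells had the higher level with either plasma. Its ratio was 0.32 without the BN1 control array and also 0.32, without a call, when the BN2 array of 10% IH was left out. Both encode ligands of the receptor CXCR2. *Cxcl3*, a further ligand of it, did not meet the criterion (0.14 in BN1, 0.06 in BN2), and its dimmer probe sets had -0.27 to 0.19. With 5% IH plasma the levels were higher still, at 6.18 and 6.22 for *Cxcl1*, and with autologous plasma they were far lower, at 3.14 and 3.74. The promoter of *Cxcl1* (chr14:17479322-17479571, minus strand) is shown for its kB site, whose overlapping matches on both strands are in capitals and run from -84 to -74, counted from the start site.
Cxcl1: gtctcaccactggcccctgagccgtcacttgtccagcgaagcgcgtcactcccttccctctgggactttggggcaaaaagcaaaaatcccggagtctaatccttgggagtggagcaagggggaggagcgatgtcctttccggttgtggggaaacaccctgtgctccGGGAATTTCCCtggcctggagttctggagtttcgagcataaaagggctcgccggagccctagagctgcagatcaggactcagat
The kB pattern searched here (GGGANNTTCC) was in 1.26% of promoters of measured genes, in 4 of the 72 promoters of genes past the threshold upward in both donors (5.56%) and in 0 of the 66 of genes past it downward. Other forms of the kB site were not searched, so a promoter without this pattern can still hold one.

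Of the 27 inflammatory cytokines and chemokines measured, 5 rose and 2 fell, against 2.04% and 2.26% of all genes, with a median ratio of 0.039 (0.068 in BN1, 0.059 in BN2). *Il1rn*, the natural antagonist of the interleukin 1 receptor, rose in both donors, from 5.65 and 5.76 to 6.06 and 6.04 (ratio 0.35). *Il1b*, the secreted agonist, rose through BN1 cells (0.57) with 0.05 in BN2 cells. Its ratio was 0.14 when the BN1 array of 10% IH was left out and 0.23 when the BN1 control array was, with no call in either case. *Ccl3*, a chemokine of monocytes and T cells, had 0.46 and 0.22 and a ratio of 0.26 without the BN1 control array, under the threshold. *Ccl20*, which attracts cells bearing CCR6, fell in both donors, from 5.27 and 5.51 to 4.97 and 5.01 (ratio -0.40). *Il6* also fell, in BN1 cells (-0.68) and not in BN2 cells (0.08), and lost its call without the BN1 control array (-0.02) or the BN1 array of 10% IH (-0.19). *Tnf* (-0.22 and 0.14) and *Ptgs2*, the inducible cyclooxygenase (0.01 and 0.01), did not meet the criterion, and with 5% IH plasma *Ptgs2* had ratios of 1.26 and 1.08. None of the 20 subunits, inhibitors and targets of NF-kB rose or fell, against 4.3% of all genes. A list of 20 is too small for 0 to stand out from that share. The median ratio of this list was -0.005 (0.055 in BN1, -0.04 in BN2). *Lcn2*, which binds the iron carriers of bacteria, rose in both donors (0.61 and 0.27), and had 0.27 when the BN1 control array was left out.

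*Gadd45a*, a stress-induced regulator of growth arrest, rose from 8.11 and 8.08 to 9.02 and 8.61 (ratio 0.72, limma standard error 0.142, adjusted p = 0.92 from limma). *LOC100912188*, which RefSeq lists as a long non-coding RNA, rose beside it, from 5.89 and 5.62 to 6.48 and 6.48 (0.73). In the RefSeq annotation these genes lie on opposite strands of chromosome 4 and overlap at their 5′ ends, so whether the probe sets measure separate transcripts was not tested. *Bcl2l11*, the death-promoting protein BIM, also rose, from 9.71 and 9.77 to 10.13 and 10.11 (0.38), and its other probe sets had ratios of -0.005 and 0.34. *Gadd45a* and *Bcl2l11* were the 2 genes to rise among the 18 measured genes of a list written for p53 targets, and none fell, against 2.04% and 2.26% of all genes. The median of the list was 0.016 (0.057 in BN1, 0.039 in BN2). Whether p53 regulates *Bcl2l11* in these cells was not tested. *Cdkn1a*, the p53-induced inhibitor of the cell cycle, had -0.14 and 0.05 by its brightest probe set and 0.46 and 0.36 by the other.

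The other genes with large rises in both donors have varied roles. *Lmo2*, a transcriptional cofactor of blood stem cells, went from 9.06 and 8.78 to 9.65 and 9.44 (0.63). *Car2*, a carbonic anhydrase, went from 9.85 and 9.45 to 10.41 and 9.98 (0.54), and a second bright probe set gave 0.68 and 0.40. The lower 10% IH array of *Car2* (BN2) lay just above the higher control array (BN1), and its ratio was 0.34 without the BN2 control array and 0.33 without the BN1 array of 10% IH. *Kiz*, a centrosomal protein, went from 7.13 and 7.14 to 7.94 and 7.57 (0.62), and *Asap2*, an activator of Arf GTPases, from 5.52 and 5.53 to 6.04 and 6.09 (0.54). *Dhtkd1*, a mitochondrial dehydrogenase of lysine breakdown, had a ratio of 0.87 that rested on unequal control arrays (5.02 in BN1, 4.09 in BN2): with 10% IH plasma it lay at 5.40 and 5.45, and the ratio was 1.33 when the BN1 control array was left out and 0.40 when the BN2 one was. *Cplx2*, a regulator of vesicle fusion, was among the dimmest 40% of probe sets (3.15 and 3.48 with control, 3.69 and 4.27 with 10% IH), with a ratio of 0.67, and 0.38 without the BN2 array of 10% IH. *Pdha1*, of the pyruvate dehydrogenase complex, rose by 0.43 (0.45 and 0.41) and by 0.60 on a second probe set. With autologous plasma *Lmo2* (9.70 and 9.91), *Asap2* (6.35 and 6.71) and *Dhtkd1* (5.57 and 6.41) were above both control arrays.

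**Figure D3:**
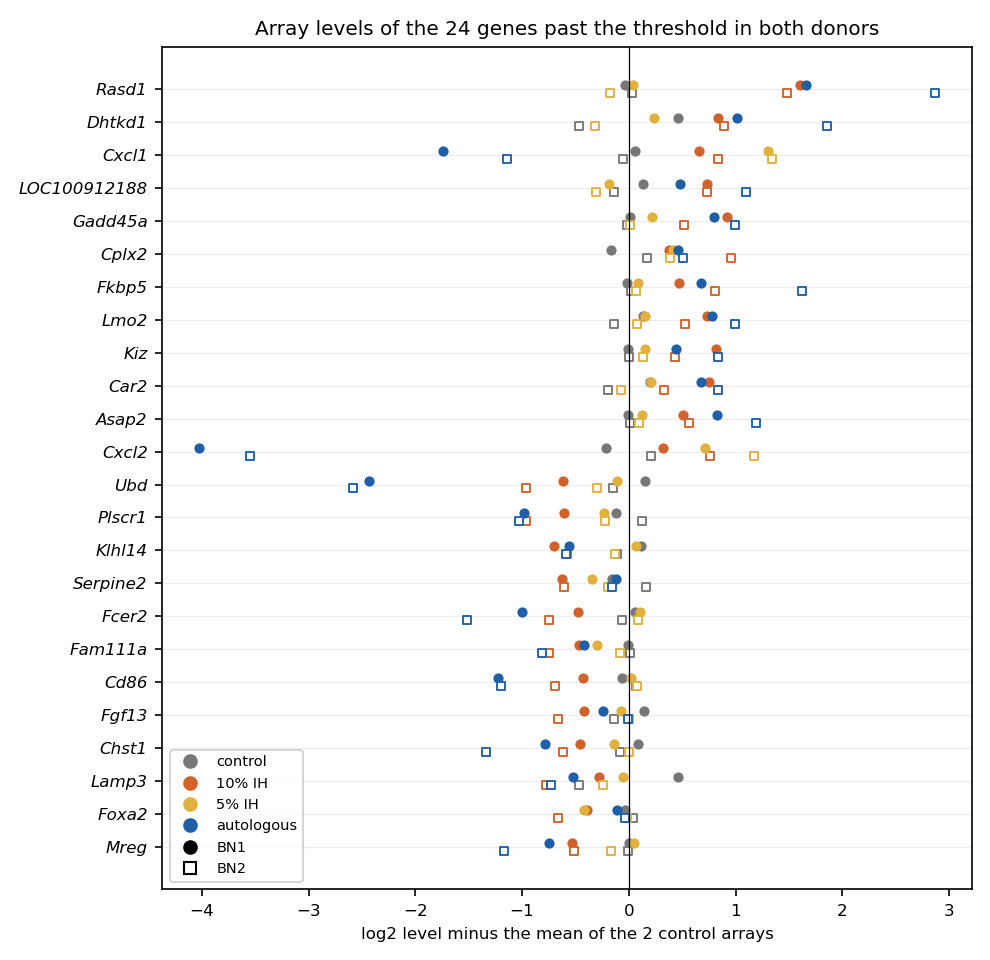
Log2 level on each array minus the mean of the 2 control arrays (x axis), for the 12 genes with the largest rises and the 12 with the largest falls past the threshold in both donors, with filled circles for BN1, open squares for BN2 and 1 color per plasma. By the choice of genes, the 10% IH arrays lie on 1 side of the control arrays of the same donor in every gene shown. The autologous arrays lie farthest from 0 for *Cxcl2* (below the control arrays) and *Rasd1* (above).

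The largest falls were those of *Ubd* and *Plscr1*. *Ubd*, the ubiquitin-like modifier FAT10, went from 8.84 and 8.55 with control to 8.08 and 7.73 with 10% IH plasma (ratio -0.79, limma standard error 0.148, adjusted p = 0.92 from limma). *Plscr1*, a phospholipid scramblase with antiviral activity, went from 5.26 and 5.50 to 4.78 and 4.42 (-0.78, limma standard error 0.131). In both genes every 10% IH array lay below both control arrays, as in 17.1% of all genes. Ratios with 1 array left out were -0.61 to -0.96 for *Ubd* and -0.61 to -0.96 for *Plscr1*. With autologous plasma they were lower still, at 6.27 and 6.12 for *Ubd* and 4.40 and 4.35 for *Plscr1*. Both are interferon-inducible, but they were the only falls among the 39 interferon-stimulated genes measured, where 2.26% of all genes fell. The median ratio of the list was -0.016 (-0.002 in BN1, -0.045 in BN2). *Cxcl10*, an interferon-induced chemokine of T cells, rose (0.40 and 0.32) from a low level of 3.38 and 3.94, and its call was lost when the BN2 array of 10% IH (0.13) or the BN1 control array (0.09) was left out.

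*Cd86*, the costimulatory ligand through which antigen-presenting cells engage CD28 on T cells, fell from 6.63 and 6.76 to 6.26 and 6.00 (ratio -0.56, limma standard error 0.107, adjusted p = 0.92 from limma). Its other probe set had -0.02 in BN1 and -0.51 in BN2 cells. *Cd86* was the 1 gene to fall among 14 genes of antigen presentation by MHC class II and costimulation, and none rose, against 2.26% and 2.04% of all genes. The list's median was 0.079 in BN1 cells and -0.091 in BN2 cells.

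Several B cell transcripts fell. *Fcer2*, the low-affinity IgE receptor CD23, fell from 6.61 and 6.48 to 6.07 and 5.79 (ratio -0.61), while its dimmer probe set had -0.02 and -0.09. *Klhl14*, an adaptor of a ubiquitin ligase, fell from 5.86 and 5.64 to 5.05 and 5.17 (-0.64). *Bank1*, a B cell scaffold protein, fell from 9.36 and 9.22 to 8.91 and 8.75 (-0.46), *Blk*, a Src family kinase of the B cell receptor, from 7.58 and 7.60 to 7.12 and 7.29 (-0.39), and *Swap70*, which acts in B cell activation and migration, from 8.80 and 8.82 to 8.50 and 8.45 (-0.34). By the brightest probe set the groups of each of these genes did not overlap, as in 17.1% of all genes in this direction, and each call held with any 1 array left out. The other probe set of *Blk* had -0.21 and -0.11, under the threshold in both donors. *Cd180*, a Toll-like receptor relative, fell in BN1 cells (-0.62) more than in BN2 cells (-0.15), and its ratio was -0.23 without the BN1 array of 10% IH.

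Of the 19 B cell markers measured, 6 fell and 0 rose, against 2.26% and 2.04% of all genes, and the median ratio was -0.099 (-0.12 in BN1, -0.15 in BN2). The list was written with earlier results of these data known, and *Klhl14* and *Fcer2* are among the genes the study lists for 10% IH. Its counts are therefore not independent evidence. The ratio was below 0 in both donors for 12 of the 19 (27.6% of all genes) and above 0 in both for 3. Abundant lineage markers did not meet the criterion. *Ms4a1* had -0.08 and -0.09, *Cd22*, an inhibitory coreceptor, -0.16 and -0.26, and *Cd79b*, a signalling chain of the B cell receptor, 0.39 in BN1 and -0.19 in BN2. *Ebf1*, a factor that specifies B cells, had 0.09 and 0.17. With 5% IH plasma the list's medians were -0.005 and -0.02. With autologous plasma *Fcer2* lay at 5.54 and 5.03 and *Cd86* at 5.47 and 5.49, below both groups. Among the 24 measured genes of B cell receptor signalling, 2 rose, *Cblb*, a ubiquitin ligase that restrains it (0.35 and 0.33, with 0.26 when the BN2 array of 10% IH was left out), and *Pik3r1*, a regulatory subunit of PI3 kinase (0.51 and 0.12). Both calls were lost without the BN1 control array (0.25 and 0.20), and that of *Pik3r1* without the BN1 array of 10% IH (0.24).

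In each list of markers of the other cell types at most 3 genes met the criterion, which 4.3% of all genes met. The 21 T cell markers had a median of -0.014 (-0.02 in BN1, -0.021 in BN2), with 1 that rose and 2 that fell, against 2.04% and 2.26% of all genes. The one that rose was *Il7r*, the interleukin 7 receptor of naive and memory T cells, from 11.02 and 11.06 to 11.50 and 11.45 (ratio 0.43), with 0.22 and 0.45 on its second probe set. *Bcl11b*, a factor of T cell identity, fell by its brightest probe set (-0.37 and -0.20), while its other probe sets had 0.01 and 0.51, so that the mean over its probe sets was 0.079, and its call was lost without the BN1 control array (-0.24) or the BN1 array of 10% IH (-0.25). *Trat1*, an adaptor of the T cell receptor, fell in BN1 cells (-0.53, with -0.11 in BN2) and had -0.14 without the BN1 control array. Monocyte markers had a median of 0.14 in BN1 and -0.012 in BN2, and none of the 23 rose or fell. The 21 markers of natural killer and cytotoxic cells (medians 0.081 in BN1, 0.041 in BN2) and the 11 of dendritic cells (-0.035 and -0.03) also had none. Platelet markers had medians of 0.081 and -0.002, with *Clu*, a chaperone of platelet granules, higher in BN1 cells (0.62, with 0.11 in BN2) and *Sparc*, a matrix protein, by 0.23 and 0.33. Neither met the criterion when 1 array was left out, the BN1 array of 10% IH for *Clu* (0.13) and the BN2 control array for *Sparc* (0.23). Transcripts of mast cells and basophils were near the bottom of the range on all arrays (mean level of the list 3.80 to 3.96). Of the 16 measured 3 fell, where 2.26% of all genes fell, and the median ratio was -0.10. The falls were those of the proteases *Mcpt1* (-0.35 in BN1, -0.45 in BN2), *Mcpt4* (-0.25 and -0.29) and *Mcpt9* (-0.27 and -0.65). Without the BN2 array of 10% IH these had -0.29, -0.21 and -0.30, and the first 2 lost the call, as did *Mcpt4* without the BN1 control array (-0.22). The part of cell type composition in any of these ratios was not tested.

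**Figure D4:**
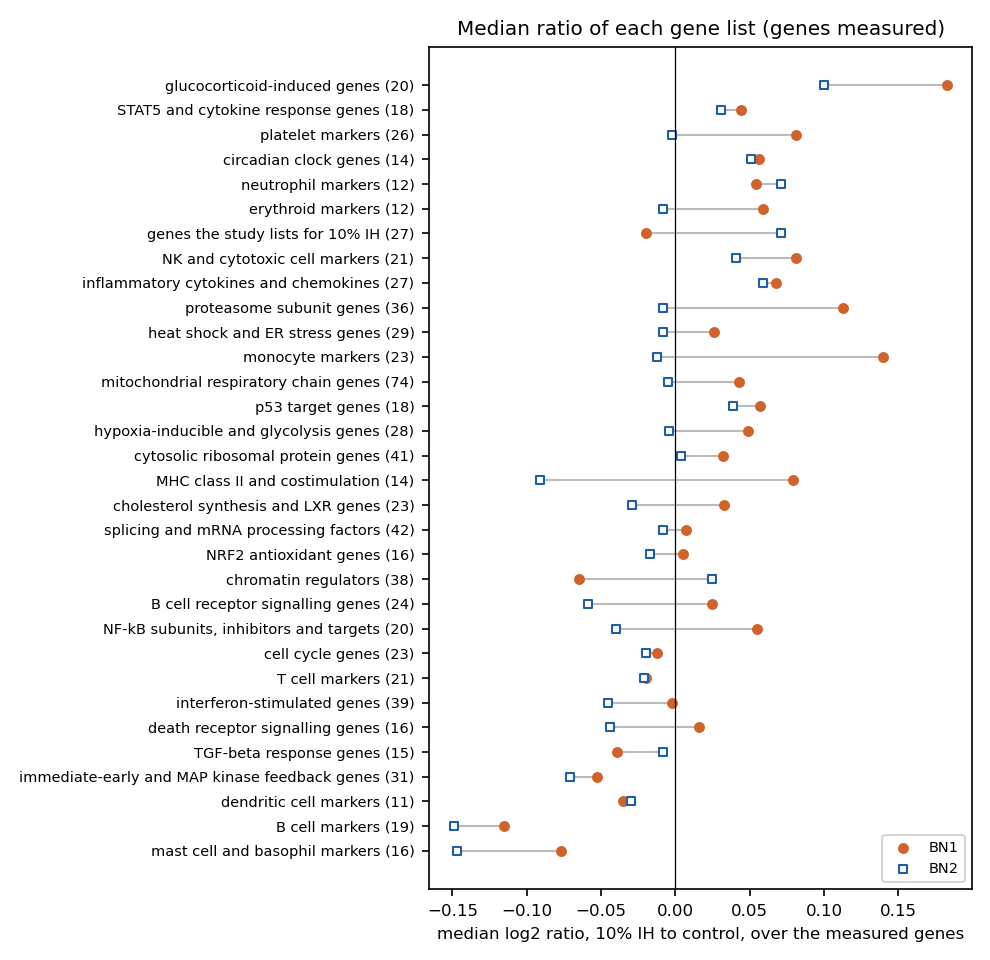
Median log2 ratio of 10% IH to control plasma over the measured genes of each of 32 lists, in BN1 cells (circles) and BN2 cells (squares), with the number of genes in parentheses. Glucocorticoid-induced genes have the highest medians in the mean of both donors (0.18 and 0.10), and B cell markers and mast cell and basophil markers the lowest.

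Of the 18 STAT5 and cytokine response genes 5 rose and 1 fell, against 2.04% and 2.26% of all genes, and the median ratio was 0.076 (0.044 in BN1, 0.031 in BN2). *Socs1*, an inhibitor of JAK kinases, rose in both donors (0.50 and 0.26), from 5.55 and 5.27 to 6.05 and 5.53. Its call was lost when the BN2 control array (0.24) or the BN1 array of 10% IH (0.12) was left out. The other probe set of *Socs1* had 0.08 and 0.07. *Cish*, a STAT5-induced inhibitor of the same family, rose from 6.52 and 6.68 to 6.91 and 6.94 (0.39 and 0.26), and its other probe set had 1.01 and 0.36. When the BN1 control array was left out the ratio of the brighter probe set was 0.24, and that of *Ccnd3* 0.25, both without a call. *Socs3*, which restrains interleukin 6 signalling, had 0.65 and 0.17, *Pim1*, a survival kinase, 0.79 and 0.09, and *Ccnd3*, cyclin D3, 0.46 and 0.12. *Ccnd2*, cyclin D2, fell (-0.79 and -0.20). Without the BN1 array of 10% IH none of these last 4 met the criterion (0.25 for *Socs3* and *Pim1*, 0.15 for *Ccnd3*, -0.22 for *Ccnd2*). *Socs2* had 0.74 in BN1 and -0.49 in BN2 cells, past the threshold in opposite directions. Of the 18 genes 10 were past the threshold in BN1 cells alone and 0 in BN2 cells alone, where over all 14217 genes these numbers were 1640 and 997. The promoter of *Cish* (chr8:116850719-116850968, plus strand) was chosen after its sequence had been seen, for its 4 matches to the STAT site, which are in capitals and lie between -241 and -111.
Cish: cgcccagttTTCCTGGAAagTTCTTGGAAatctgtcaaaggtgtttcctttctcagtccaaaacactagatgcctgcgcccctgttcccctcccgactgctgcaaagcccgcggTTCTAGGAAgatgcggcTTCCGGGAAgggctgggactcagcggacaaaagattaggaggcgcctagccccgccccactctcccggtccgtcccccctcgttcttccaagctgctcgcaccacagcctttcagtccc
A STAT site was in 6.13% of promoters of measured genes. *Socs1* and *Klf9* each had 1 match and *Socs3* had none in this window.

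Of 31 immediate-early and MAP kinase feedback genes 0 rose and 3 fell, against 2.04% and 2.26% of all genes. The median ratio was -0.035 (-0.053 in BN1, -0.071 in BN2). *Ier2*, an immediate-early gene, fell from 9.59 and 9.43 to 9.20 and 9.08 (ratio -0.37, both donors past the threshold). *Jun*, a subunit of the factor AP-1 (-0.43 and -0.21), and *Nr4a2*, an orphan nuclear receptor (-0.40 and -0.20), fell in BN1 cells and had ratios of -0.19 and -0.20 without the BN1 array of 10% IH. Among 28 hypoxia-inducible and glycolysis genes, *Eno1*, an enolase, rose in BN1 cells (0.52, with 0.01 in BN2) and *Adm*, adrenomedullin, fell in BN2 cells (-0.38, with -0.15 in BN1), and the median was 0.015. Without the BN1 control array *Eno1* had 0.20, and without the BN1 array of 10% IH 0.07. *Adm* had -0.13 without the BN2 control array and -0.24 without the BN1 array of 10% IH, so neither call held. Ribosomal protein genes (median 0.01 over 41) and respiratory chain genes (0.017 over 74) stayed near 0. Proteasome subunits had a median of 0.11 in BN1 and -0.008 in BN2 cells.

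Genes that met the criterion were chosen for a large BN1 ratio and a BN2 ratio within 0.1 of 0 or of the other sign. The difference between donors is therefore a description. *Zfp451*, a zinc finger SUMO ligase, went from 8.56 to 6.87 in BN1 cells and from 8.26 to 8.43 in BN2 cells. *Wdr33*, a subunit of the polyadenylation complex, went from 8.45 to 6.94 and from 8.61 to 8.67. *Zbtb41*, a zinc finger protein, had -1.28 and 0.15, *Vcpip1*, a deubiquitinase, -1.02 and 0.18, and *Lrp6*, a Wnt coreceptor, -0.95 and 0.15. All of these are bright, with control levels of 6.78 or more, and on the BN1 array of 10% IH they lay below the other 5 arrays with Sprague-Dawley plasma. *Hook3*, a dynein adaptor, had -1.0 and 0.39. On the upward side *G2e3*, a ubiquitin ligase (0.92 and 0.02), *Gnb2*, a G protein subunit (0.86 and -0.04), *Clcn7*, a lysosomal chloride transporter (0.83 and -0.12), *Nr1h2*, the oxysterol receptor LXR beta (0.82 and 0.00), and *Ube2s*, a ubiquitin-conjugating enzyme (0.81 and -0.05), rose through BN1 cells. Without the BN1 array of 10% IH, ratios of these 11 genes were -0.02 to 0.15, and none met the criterion. The choice by the BN2 ratio made such small values likely. *Hook3* (0.005), *Vcpip1* (-0.22), *Clcn7* (0.16) and *Ube2s* (0.19) also lost the call without the BN1 control array. In BN2 cells the largest such ratios were those of *Zfp933* (0.83, with 0.05 in BN1) and *Tdrkh* (-0.83, with 0.26), at levels of 3.98 to 5.24, and the other 4 (*Rwdd2a*, *Klkb1*, *Bnc2* and *Ano4*) lay under 3.4 on all 4 arrays. *Tdrkh* had 0.20 without the BN2 control array and -0.23 without the BN2 array of 10% IH, and *Zfp933* had 0.22 without the latter.

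Further probe sets of the same genes gave a measure that had not been used to choose them. Where the brightest probe set was past the threshold in both donors, 25 of 85 other probe sets (29.4%) were past it in the same direction and 2 in the other, against 6.85% in the same direction over all genes. Where it met the criterion and was past in BN1 cells alone, 16 of 117 (13.7%) followed in BN1 cells and 12 went past in the other direction. Over all genes 14.3% of other probe sets were past the threshold in BN1 cells in the direction of the brightest one. Where it met the criterion and was past in BN2 cells alone, 4 of 62 (6.45%) followed in BN2 cells, against 7.16% over all genes. These shares were 17.1% for all genes past in BN1 cells and 12.9% for all past in BN2 cells, with or without a call and including those past in both. Among the brighter 60% of other probe sets, 20 of 38 (52.6%) followed for genes past in both donors, against 8.96% over all genes. For genes that met the criterion and were past in BN1 alone 13 of 66 (19.7%) followed, against 19.2%. For those past in BN2 alone 1 of 15 (6.67%) did, against 5.31%. In BN1 cells the other probe set of *Zfp451* had -0.09, that of *Wdr33* 0.01, that of *Vcpip1* -0.14, that of *Gnb2* 0.20 and that of *Nr1h2* -0.02. Probe sets of a gene share the RNA of the array, so these counts are a description.

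The genes that the study lists for 10% IH were chosen on these arrays, and a direction counted over them is not independent evidence. Of 30 genes listed 27 were measured, and by the brightest probe set 8 rose and 6 fell, 12 of them past the threshold in both donors. Of the other 13 genes, 12 had a dimmer probe set past the threshold, 9 upward and 3 downward. *Scaf11*, a splicing factor with an arginine- and serine-rich domain, had -0.07 by its brightest probe set, and 0.83 by another that went from 7.78 and 8.24 to 9.11 and 8.58. *Rbbp6*, a ubiquitin ligase that also acts in polyadenylation, had 0.05 by the brightest and 0.62 by another (0.73 and 0.51), and *Rif1*, a regulator of DNA replication and repair, had -0.11 by the brightest and 0.61 and 0.52 by 2 others. *Api5*, an inhibitor of apoptosis, had -0.07 and 0.61, and *Zfp317* -0.13 and 0.62, each past the threshold in both donors by the dimmer probe set. *Il1a*, an alarm cytokine of the interleukin 1 family, had 0.06 by its brightest probe set and 0.59 by another near the bottom of the range (3.21 and 3.23 to 3.97 and 3.66).

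The 3 genes with a dimmer probe set downward had no such fall in BN2 cells. One probe set of *Usp7*, a deubiquitinase, had -1.72 and 0.35, one of *Cbl*, a ubiquitin ligase of receptor signalling, -1.48 and 0.25, and one of *Jam2*, a junctional adhesion molecule, -1.42 and 0.16. The BN2 ratio of *Usp7*, and that of a second *Jam2* probe set (-1.22 and 0.34), were past the threshold upward, while their brightest probe sets had 0.14, -0.04 and -0.01. *Dck*, deoxycytidine kinase, had one dimmer probe set at 1.11 and 0.20 and another at -0.48 and 0.43. For these genes the direction and the size thus depended on the probe set. *Cul5*, a scaffold of ubiquitin ligases, had no probe set past the threshold among those named by 1 symbol.

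**Figure D5:**
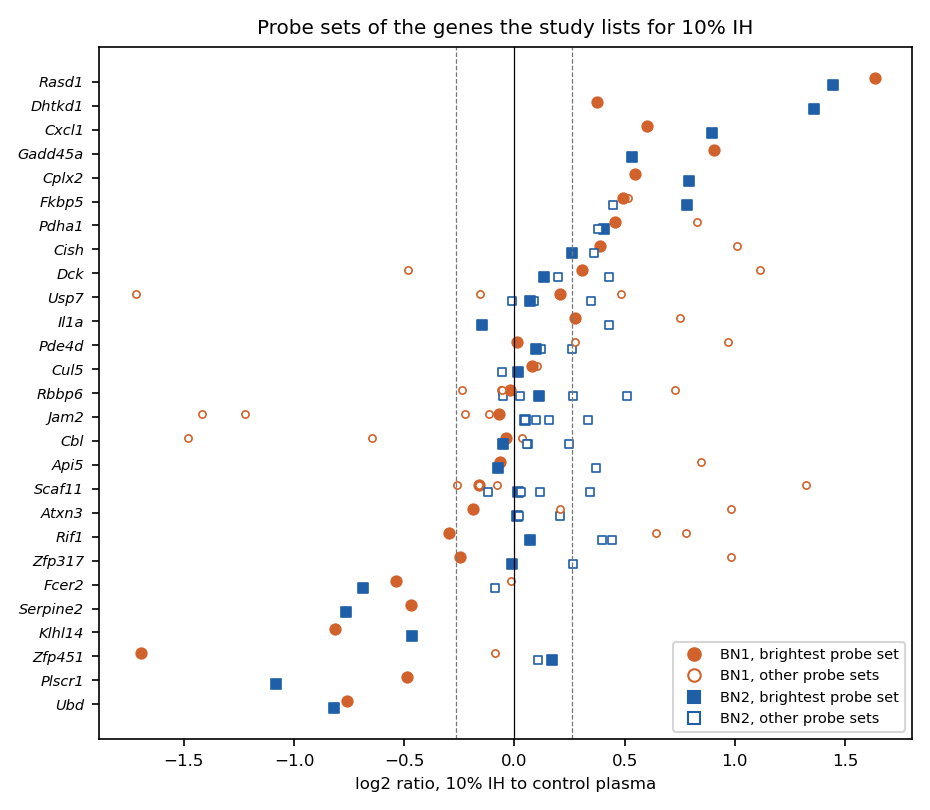
Log2 ratio of 10% IH to control plasma for every probe set of the 27 measured genes that the study lists for 10% IH, in BN1 (circles) and BN2 cells (squares), with filled symbols for the brightest probe set and dashed lines at the fold threshold. The probe sets of *Fkbp5* and *Pdha1* all lie above the threshold, while in BN1 cells 1 dimmer probe set of *Scaf11* (1.32) and one each of *Usp7* (-1.72), *Cbl* (-1.48) and *Jam2* (-1.42) lie far from the brightest one.

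Other genes also fell in both donors. *Chst1*, a carbohydrate sulfotransferase, fell from 6.74 and 6.56 to 6.20 and 6.04 (ratio -0.53), and *Mreg*, which acts in melanosome and lysosome transport, from 7.03 and 7.02 to 6.49 and 6.51 (-0.53). With autologous plasma both were lower still, *Chst1* at 5.87 and 5.32 and *Mreg* at 6.28 and 5.85. *Serpine2*, a protease inhibitor (-0.47 in BN1, -0.76 in BN2), *Fam111a*, an antiviral protease (-0.46 and -0.76), *Fgf13*, a non-secreted fibroblast growth factor (-0.56 and -0.52), *Lamp3*, a lysosomal protein of mature dendritic cells (-0.74 and -0.31), and *Foxa2*, a factor of endoderm (-0.35 and -0.70), were among the dimmest 40% of probe sets, and *Lamp3* had -0.99 when the BN2 control array was left out and -0.07, without a call, when the BN1 control array was. Set directly against 5% IH plasma, 0 probe sets differed with 10% IH plasma at an adjusted p under 0.05 in limma, against 1452 at an unadjusted p under 0.05. The levels with 10% IH plasma were lower there by 0.71 for *Fcer2*, 0.61 for *Cd86* and *Klhl14* and 0.59 for *Ubd*, and higher by 0.60 for *Gadd45a* and 0.51 for *Lmo2* (adjusted p = 0.981 from limma for each).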

How the data were processed

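Transcript levels were measured in cultured PBMCs of 2 Brown Norway rats on 8 Affymetrix rat arrays, 1 per culture. The authors used Expression Console to make the deposited log2 values by Robust Multichip Analysis, in which background is corrected, arrays are brought to common quantiles and probes are summarized. Array medians were 5.53 to 5.56, so no further scaling was applied, and precision is limited by the 2 arrays per group. Of 31042 probe sets, 20826 have 1 gene symbol in the platform annotation, 436 several and 9780 none. RefSeq held the gene identifier of 20758 of those with 1 symbol. A gene is represented by the named probe set with the highest mean over the 8 arrays.

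The Rank Product was written in R 4.3.3, with the 4 between-array ratios, 100 permutations of values within arrays, and a 1-sided p. limma 3.58.1 was fitted to the 4 plasmas on the 8 arrays, with no term for the donor, and p-values were adjusted over the whole table (Benjamini-Hochberg). The steps were tested on simulated data. Arrays with the same replicate number hold cells of the same donor. Deviations from group means correlated at 0.059 between them for control and 10% IH. Named were the 12 largest rises and 12 largest falls in both donors and the members of fixed gene lists. Also named were the largest ratios in 1 donor among called genes whose other ratio was within 0.1 of 0 or of the other sign. Genes, lists and promoter motifs were chosen with earlier results of these data known. The published pathway tools were not used here. Alternatives were ratios within donors, other p-values and filters, further scaling, averages over the probe sets of a gene, and each array left out.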

Additional observations from a re-analysis of the deposited data

Results flagged for a closer look

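In 3 of the named or listed genes the ratio of 10% IH to control plasma was past the fold threshold in opposite directions in the cells of the donors, and the difference between donors was not tested. *Hook3* had -1.0 in BN1 and 0.39 in BN2, *Socs2* had 0.74 and -0.49, and *Ccna2*, cyclin A2, had -0.39 and 0.28 at levels of 2.65 to 3.04. Over all genes 82 were past the threshold in opposite directions. The widest was *Spetex2l1*, named after its values were seen, with 1.15 and -0.66. Groups of 2 arrays do not allow a test for single outlying arrays.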

How the results depend on the processing

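Counts of genes that met the criterion (290 higher, 322 lower) were 290 and 322 with the replicate block, as ratios within donors. The block changes only the Rank Product p and not the group means, so equal counts say little about the pairing. The counts were 232 and 271 with a 2-sided p, and 1 and 0 at an estimated share of false predictions under 0.05. With limma's unadjusted p in place of the Rank Product they were 181 and 221, and without the dimmest 40% of probe sets 177 and 193. With 1 array left out they were 399 to 529 and 475 to 526, of which 174 to 212 and 188 to 224 were genes of the full comparison. The 174 genes past the threshold in both donors became 104 without the dimmest 40% of probe sets, and 135 to 176 under further scaling or with the probe sets of a gene averaged. In limma, 0 probe sets passed with donor as a replicate block (lowest adjusted p = 0.87), 1 with the 4 arrays alone and 0 with these and the block. Leaving out 1 array gave 0 to 46 probe sets. The 46, without the BN2 array of 10% IH, assume that the lone BN1 array varies like the other groups, and 41 of them were lower. Of 94 called genes of the lists and rules, 38 met the criterion with each single array left out in turn. Of 32 list medians, 26 moved by more than the spread between donors under some setting.

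Ratios reversed with 1 array left out for *Hook3* (-0.688 to 0.075), *Lrp6* (-0.874 to 0.07), *Wdr33* (-1.59 to 0.14), *Zbtb41* (-1.14 to 0.01), *Zfp451* (-1.545 to 0.021), *Tdrkh* (-0.78 to 0.20), *Cdk1* (-0.859 to 0.071) and *Setd5* (-0.044 to 0.615), and for *Bcl11b* by the mean of its probe sets (0.079). The cause was not tested.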
